A study of Homo sapiens with 27 samples.

Results

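EXT1, CMIP, ADK and SUCLG2 are 4 human genes, each spread over a window of 267.0 to 558.5 kb, whose most downstream RNA 3′ end was low in H358 cells after cisplatin. They were chosen by that reading in H358, so every H358 value below describes the choice and carries no test. Of 233020 merged 3′-end peaks in the series, 69 lay in the 4 windows: 13 in EXT1, 20 in CMIP, 25 in ADK and 11 in SUCLG2. The libraries count the 3′ ends of poly(A)+ RNA in 3 lung cancer lines, in 9 groups of 3 libraries. Whole H358 cells had received either drug or the vehicle, DMSO. For A549 and A549R the cytosol of vehicle-treated and cisplatin-treated cells was used, and for A549 also the heavy polysomes, again with vehicle or cisplatin. Both drugs were used at 100 µM, and no source used here gives the exposure time. The series design compares cisplatin with vehicle and resistant with sensitive cells. The resistant line is taken to be A549R; how it was made, and whether it is 1 clone, is not given in the labels. Nothing in the labels says that replicates came from separate cultures, so p-values measure the spread between these libraries, which may be technical.

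The 3′ end of a messenger RNA is set by cleavage and polyadenylation, and a gene can use more than one such site. Use of a site inside an intron gives a short transcript that lacks the last exon. Cisplatin and oxaliplatin are platinum compounds that bind DNA and form adducts within and between strands; oxaliplatin carries a diaminocyclohexane ligand where cisplatin carries ammonia. EXT1 is a Golgi glycosyltransferase that, with EXT2, elongates heparan sulfate. CMIP is an adaptor protein first described as an inducer of c-Maf signalling. ADK phosphorylates adenosine to AMP. SUCLG2 is the GTP-specific beta subunit of succinyl-CoA ligase, a mitochondrial enzyme of the citric acid cycle.

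The promoters of 3 of the 4 genes are shown because their distal ends were low together. The libraries count 3′ ends, so which start the transcripts used was not measured. They are RefSeq sequences of build GRCh38.p14, whereas the peak positions below fit hg19, so the coordinates cannot be set against each other. EXT1 had no entry in the table. Where a gene had several entries the outermost start was taken. Each runs 5′ to 3′ on the gene's strand, and capitals mark GGGCGG on either strand, the GC box.
CMIP, chr16:81444558-81444857, plus strand: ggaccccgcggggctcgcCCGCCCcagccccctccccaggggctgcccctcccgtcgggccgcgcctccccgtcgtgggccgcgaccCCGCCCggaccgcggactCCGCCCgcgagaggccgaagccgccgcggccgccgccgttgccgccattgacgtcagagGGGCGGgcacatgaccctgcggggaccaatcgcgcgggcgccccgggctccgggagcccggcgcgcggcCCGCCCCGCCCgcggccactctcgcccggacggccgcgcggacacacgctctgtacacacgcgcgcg
ADK, chr10:74150971-74151270, plus strand: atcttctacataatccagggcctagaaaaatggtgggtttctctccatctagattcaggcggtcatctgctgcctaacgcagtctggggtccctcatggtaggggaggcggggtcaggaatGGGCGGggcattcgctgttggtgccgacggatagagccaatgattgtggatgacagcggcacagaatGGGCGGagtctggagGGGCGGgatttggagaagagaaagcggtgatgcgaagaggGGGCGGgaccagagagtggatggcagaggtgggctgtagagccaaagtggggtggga
SUCLG2, chr3:67654563-67654862, minus strand: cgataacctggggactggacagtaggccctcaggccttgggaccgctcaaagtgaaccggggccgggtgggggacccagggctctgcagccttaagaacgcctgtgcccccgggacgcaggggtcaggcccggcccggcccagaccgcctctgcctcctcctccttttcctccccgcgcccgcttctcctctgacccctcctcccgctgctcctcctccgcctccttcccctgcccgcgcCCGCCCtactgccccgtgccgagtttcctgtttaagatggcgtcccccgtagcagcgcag
The CMIP promoter holds 6 GC boxes, 2 of them overlapping, the ADK promoter 4 and the SUCLG2 promoter 1. A GC box occurs in 45.0% of the 35116 promoters of the table. TATAAA, searched on both strands, occurs 0 times in the 3 and in 11.5% of all. CG dinucleotides number 55 in CMIP, 23 in SUCLG2 and 13 in ADK, against a median of 14. Entries not shown differ: that of CMIP holds 1 GC box and 5 CG dinucleotides, and that of ADK 2 and 34.

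The lists are of 2 kinds, and this bears on every earlier end described below. In 16 long lists at least 73.1% of the peak numbers are present. In 11 short lists, those of H358 oxaliplatin, of A549 cytosol and of replicate 3 of both polysome groups, 30.6% to 42.3% are. A peak that is missing from a short list is therefore not a count of 0. Peaks found in at least 1 short list (81800) are called the shared class here, and the rest the long-list class. Total counts per library ranged from 3024814 to 11997535. Levels are given in CPM with each library's shared-class counts as the denominator, so that long-list peaks do not enter it. A short list can still lack shared-class peaks that long lists hold. The denominators therefore still differ in part by the kind of list, which limits comparisons of level between the kinds. In H358 the shared class held 81.4% to 82.1% of all counts in DMSO and 66.7% to 73.1% in cisplatin, so CPM of total counts would put the cisplatin levels lower still. Library means do not separate fewer cells from less RNA per cell.

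In H358 the distal ends of all 4 genes were 9.74-fold to 16.2-fold lower with cisplatin than with DMSO by group means. The EXT1 distal end (chromosome 8, 118811597 to 118812143, minus strand) stood at 74.2, 55.4 and 53.6 CPM in the 3 DMSO libraries and at 5.85, 3.90 and 2.60 CPM in the 3 cisplatin libraries. Its log2 change was -4.05 ± 0.38 (SE of the edgeR fit, n = 3 per group). The CMIP distal end (chromosome 16, 81744519 to 81745373, plus strand) stood at 159.7, 82.7 and 85.2 CPM in DMSO and at 7.52, 7.10 and 5.57 CPM in cisplatin, a log2 change of -4.22 ± 0.38. DMSO replicate 1 was the highest CMIP library of these. The ADK distal end (chromosome 10, 76468066 to 76469065, plus strand) stood at 37.1, 55.4 and 39.8 CPM in DMSO and at 2.51, 9.23 and 1.86 CPM in cisplatin, a log2 change of -3.54 ± 0.58. Replicate 2 was the highest ADK library in both groups. No list held a peak in the last 3 kb of the SUCLG2 window, so its most downstream peak, 14539 bases before the window's border, was used (chromosome 3, 67425139 to 67426246, minus strand), a choice made after values were seen. It stood at 21.1, 39.8 and 16.15 CPM in DMSO and at 1.88, 1.77 and 1.86 CPM in cisplatin, a log2 change of -3.99 ± 0.47. The cisplatin values of SUCLG2 rest on 9, 5 and 5 counts, and 5 is the smallest count any list holds.

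All 4 distal ends had every cisplatin library below every DMSO library, as did 20.7% of the 52700 peaks fitted, and nothing is read from this since the choice used it. The median log2 change over those 52700 peaks was -0.16. Of the 27634 peaks listed in all 6 libraries, 18 had a log2 change at or below that of ADK, 5 at or below that of SUCLG2, 4 at or below that of EXT1 and 3 at or below that of CMIP, each count including the gene's own peak.

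**Figure D1:**
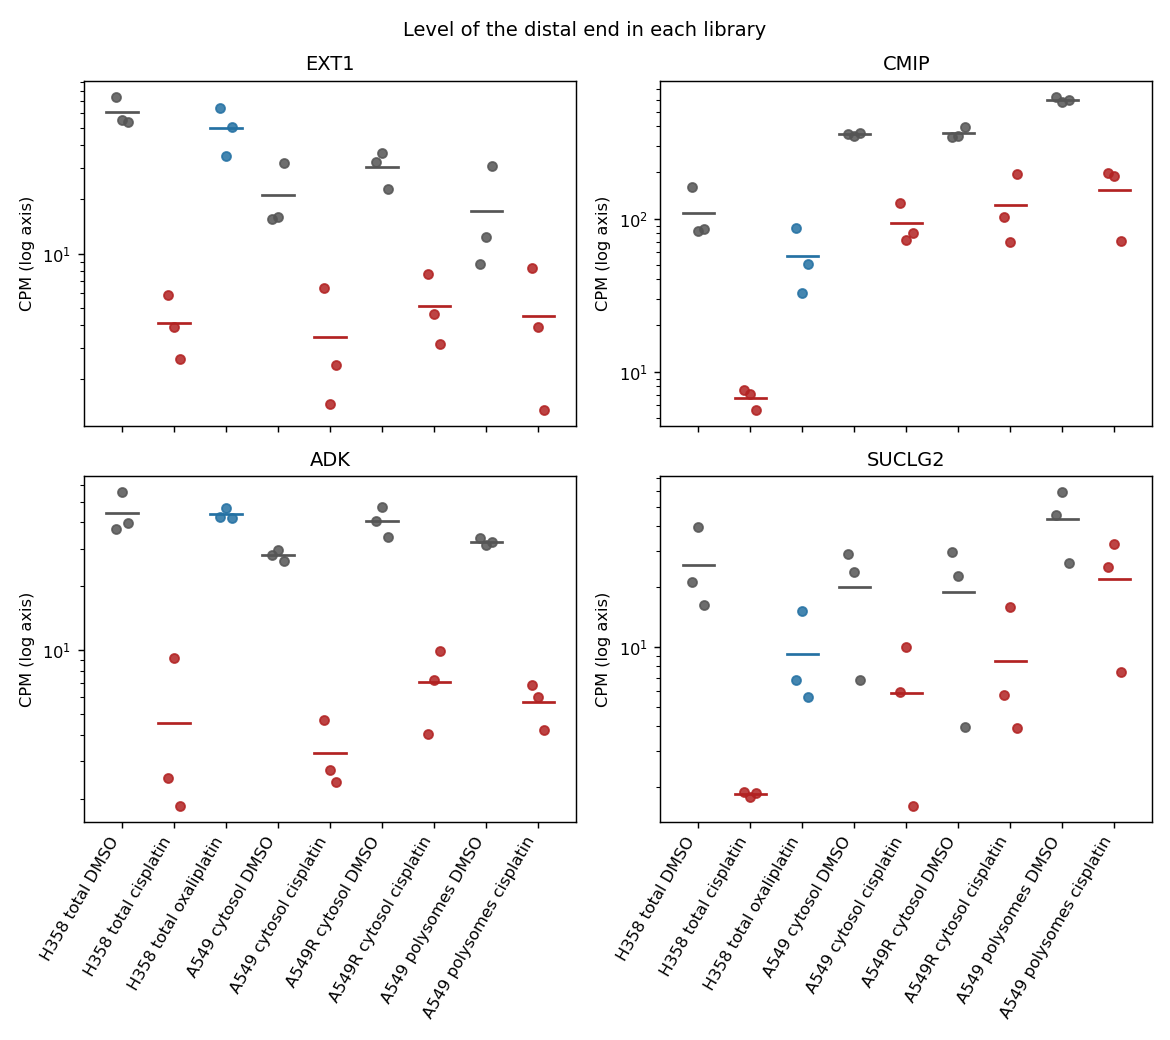
Level of the distal end in CPM (log axis) in each of the 27 libraries, 1 panel per gene; points are libraries, bars are group means, grey is DMSO, red cisplatin and blue oxaliplatin. In each gene the H358 cisplatin libraries lie below the H358 DMSO libraries, and in SUCLG2 the A549, A549R and polysome groups overlap.

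With oxaliplatin at the same dose in H358, the ADK and EXT1 distal ends overlapped their DMSO levels, and CMIP and SUCLG2 were lower by group means. ADK stood at 42.5, 46.5 and 42.1 CPM with oxaliplatin (log2 change against DMSO -0.13 ± 0.45, 95% interval -1.13 to 0.88). EXT1 stood at 64.5, 34.9 and 50.5 CPM (log2 -0.42 ± 0.29, interval -1.07 to 0.22). Both genes' libraries overlapped those of DMSO. CMIP stood at 87.2, 32.7 and 50.7 CPM (log2 -1.09 ± 0.37), and its highest oxaliplatin library overlapped the DMSO range. SUCLG2 stood at 6.81, 15.03 and 5.63 CPM (log2 -1.59 ± 0.44). Its highest oxaliplatin library lay just below its lowest DMSO library, at 16.15 CPM. How many of all peaks did not overlap between these groups was not counted, so nothing is read from this. Cisplatin against oxaliplatin gave log2 differences of -3.16 ± 0.34 for EXT1, -2.87 ± 0.53 for ADK, -2.66 ± 0.41 for CMIP and -1.93 ± 0.53 for SUCLG2. These comparisons share libraries with the one that chose the genes, cross the kinds of list, and were fitted over the shared class alone, so they are descriptions too.

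Earlier ends, those upstream of the distal end on the same strand, did not move as one. Of the 5 long-list ends that all 6 H358 DMSO and cisplatin libraries listed, 1 had a negative log2 change, and the 5 ran from -0.68 to 0.75; ends missing from any of the 6 lists are not in this range. In EXT1 the largest earlier end (118992921 to 118993067) went from 6.06 to 7.80 CPM by group means (log2 0.16 ± 0.28), and the next (119077086 to 119077190) from 2.197 to 2.57 CPM (log2 0.02 ± 0.52). In CMIP the end at 81682343 to 81682448 went from 10.2 to 20.1 CPM (log2 0.75 ± 0.32) and the end at 81662680 to 81662792 from 3.41 to 4.22 CPM (log2 0.08 ± 0.39). In ADK the end at 75970035 to 75970132 went from 4.21 to 3.02 CPM (log2 -0.68 ± 0.39).

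Several shared-class earlier ends in H358 were listed in few or no cisplatin libraries. The CMIP end just upstream of the distal one (81743690 to 81744504) held 392, 234 and 76 counts in DMSO and was listed in 1 of 3 cisplatin libraries, with 16 counts (log2 -4.83 ± 1.101). The CMIP end with the lowest log2 change (81641118 to 81641307) held 18, 7 and 8 counts in DMSO and was in no cisplatin list. In ADK the ends at 76153904 to 76154083 (6.65 CPM in DMSO) and 76158218 to 76158343 (3.20 CPM) were also in no cisplatin list. The CMIP end at 81641118 and the ADK ends at 76153904 and 76158218 entered the fit through DMSO counts alone. Their negative sign was fixed by this and is not read. Total counts were 5248796 to 9058438 in H358 DMSO and 3765404 to 6542394 in cisplatin, and no list holds a count below 5. Of the 5 shared-class earlier ends with enough counts to be fitted, 4 had a negative log2 change, these included. The other was the ADK end at 76361543 to 76362013, at 9.65 CPM in DMSO and 16.7 CPM in cisplatin (log2 0.58 ± 0.35). The ADK end with the largest log2 change (76026207 to 76026344) was listed in 2 of the 27 libraries, cisplatin replicates 1 and 2 of H358, with 27 and 23 counts.

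**Figure D2:**
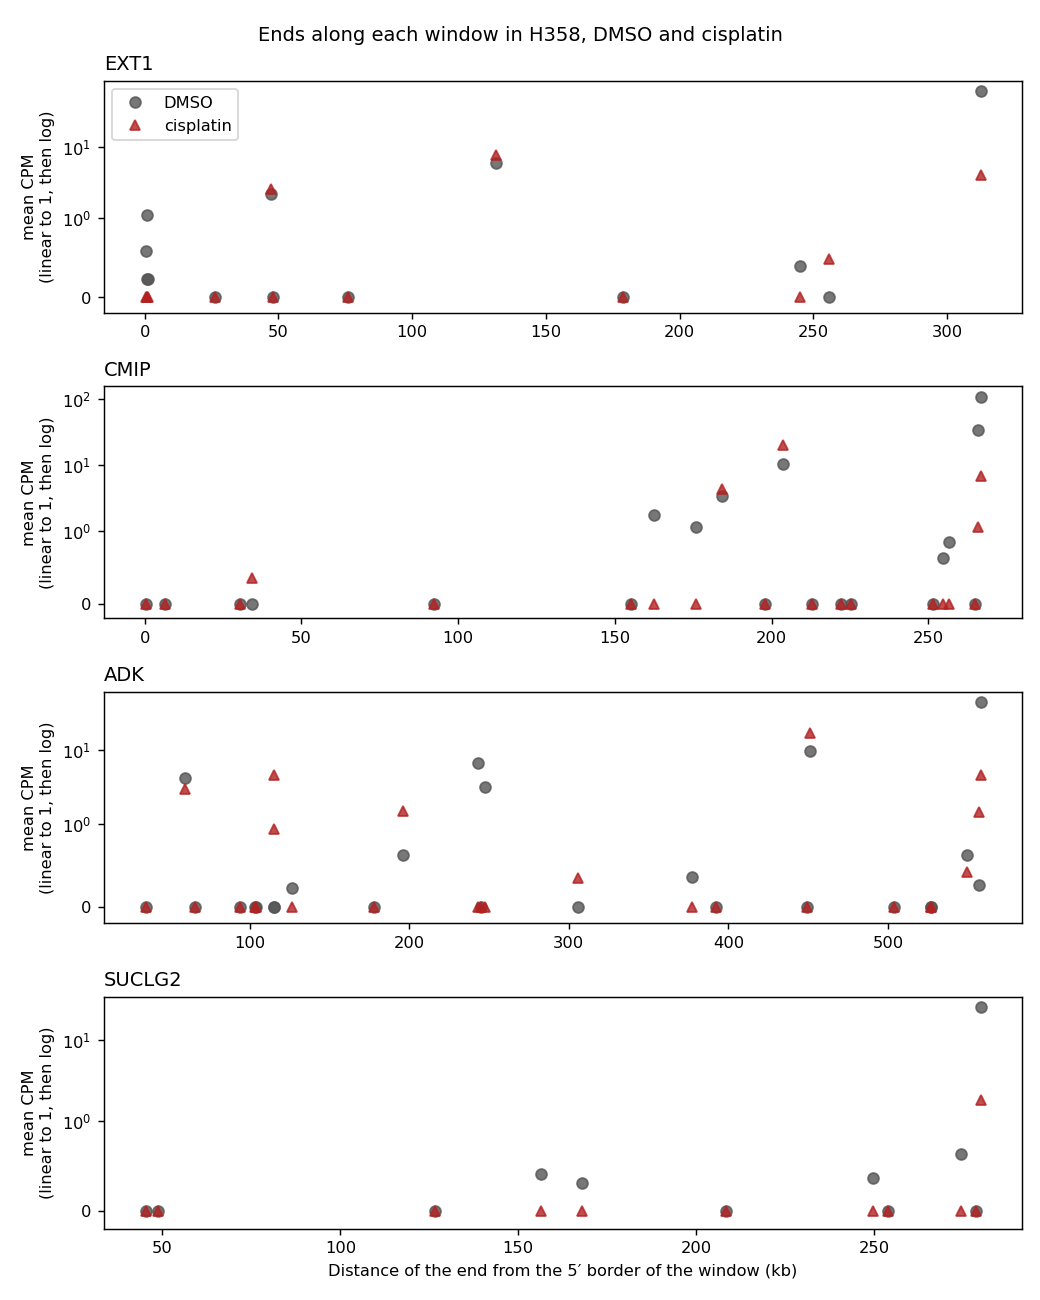
Mean CPM of every merged peak in H358 DMSO (grey circles) and H358 cisplatin (red triangles) against its distance from the 5′ border of the window in kb; the CPM axis is linear to 1 and logarithmic above. The rightmost peak of each window is far lower in cisplatin, and so is the largest earlier CMIP end beside it (34.2 and 1.11 CPM); the EXT1 end at 118992921 (6.06 and 7.80 CPM) and the CMIP end at 81682343 (10.2 and 20.1 CPM) are not lower, and several smaller ends are in no cisplatin list.

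The distal share, the percent of a gene's window counts that lay in its distal end, follows from both. In H358 it was 84.6 ± 4.41% (SD, n = 3) in DMSO and 27.3 ± 9.67% in cisplatin for EXT1, 67.3 ± 2.61% and 21.2 ± 4.74% for CMIP, and 62.7 ± 4.29% and 11.9 ± 5.68% for ADK. For SUCLG2 it was 94.1 ± 6.25% and 100.0 ± 0.0%, since no earlier end was listed with cisplatin. SUCLG2 was thus low at its distal end without a shift toward listed earlier ends. With shared-class earlier ends alone the difference turned positive for EXT1 (2.99 percentage points) and CMIP (13.4 points), so for these 2 genes it rests on the long-list class. For ADK the share then went from 68.9% to 18.9%. In cisplatin this rests on the end at 76361543, the only shared-class earlier ADK end listed there. That end was in 19 libraries, 16 of them with long lists, so it too was mostly seen in long lists. The median EXT1 count lay at 99.9% of the window length, measured from its 5′ border, in each DMSO library and at 42.0% in each cisplatin library. For CMIP these positions were 99.9% and 76.3%, for ADK 99.9% and 80.8%, and for SUCLG2 95.1% in both groups.

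In A549 cytosol, which was not used to choose the genes, all 4 distal ends were lower with cisplatin by group means. In edgeR's test over all peaks, fitted without replicate numbers, ADK and CMIP passed and EXT1 and SUCLG2 did not. With the replicate number as a block none passed over all peaks. ADK stood at 28.2, 29.6 and 26.4 CPM in DMSO and at 4.70, 2.73 and 2.41 CPM in cisplatin (log2 -3.03 ± 0.27, n = 3, adjusted p 0.0217, edgeR). CMIP stood at 355.0, 348.5 and 361.2 CPM in DMSO and at 127.2, 72.2 and 81.03 CPM in cisplatin (log2 -1.87 ± 0.21, adjusted p 0.0319, edgeR). EXT1 stood at 15.6, 16.0 and 31.7 CPM and at 6.43, 1.46 and 2.41 CPM (log2 -2.58 ± 0.58, adjusted p 0.122, edgeR). Groups did not overlap in these 3 genes, which 15.2% of the 33942 peaks tested also showed in this direction. A peak missing from any DMSO list could not show this, yet is counted among the 33942. SUCLG2 stood at 29.1, 23.6 and 6.82 CPM and at 5.94, 10.03 and 1.60 CPM (log2 -1.68 ± 0.70, adjusted p 0.330, edgeR), with groups that overlapped; replicate 3 was its lowest library in both groups.

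The 2 falls called among 4 distal ends stand beside 0.177% of all peaks called lower. Over the 22161 peaks listed in all 6 libraries EXT1 passed as well (adjusted p 0.0219, edgeR; 3 of 4 genes, 2.58% of peaks called lower) and SUCLG2 did not (0.118). The same 3 genes passed over all peaks in DESeq2 (EXT1 0.00356; 2.97% of peaks) and in edgeR with no minimum count (EXT1 0.000956; 1.32%). Same-numbered A549 libraries varied together, and with the replicate number as a block over all peaks ADK and CMIP both had an adjusted p of 0.0642 (edgeR), so neither passed. With the block over the peaks listed in all 6 libraries, a fit added after the data were seen, all 4 passed (SUCLG2 0.000899), and 9.57% of peaks were called lower. Leaving out any A549 library other than cisplatin replicate 1 also ended the calls of ADK (adjusted p 0.0577 to 0.139, edgeR) and CMIP (0.0986 to 0.154). Among those 22161 peaks, 6 had a log2 change at or below that of ADK, 23 at or below EXT1, 109 at or below CMIP and 170 at or below SUCLG2.

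In A549R cytosol the same 4 distal ends were lower with cisplatin by group means; none passed in edgeR over all peaks, and 3 passed in DESeq2. EXT1 stood at 32.3, 36.0 and 22.8 CPM in DMSO and at 7.66, 4.61 and 3.13 CPM in cisplatin (log2 -2.39 ± 0.42, adjusted p 0.194, edgeR). ADK stood at 40.3, 47.2 and 34.2 CPM and at 4.04, 7.24 and 9.91 CPM (log2 -2.36 ± 0.38, adjusted p 0.183, edgeR). CMIP stood at 338.7, 346.1 and 398.3 CPM and at 102.2, 70.4 and 194.5 CPM (log2 -1.39 ± 0.32, adjusted p 0.321, edgeR), replicate 3 being the highest in both groups. Groups did not overlap in these 3 genes, against 10.8% of the 71312 peaks. Here too, peaks missing from any DMSO list could not show this. SUCLG2 stood at 29.6, 22.7 and 3.99 CPM and at 5.75, 15.8 and 3.91 CPM (log2 -1.02 ± 0.83, adjusted p 0.967, edgeR), and its groups overlapped.

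Over all A549R peaks 0.0% were called lower, with 5321 peaks of either direction at an unadjusted p under 0.05 (edgeR). Over the same peaks DESeq2 called ADK (adjusted p 1.55e-05), EXT1 (0.000272) and CMIP (0.00249) lower, beside 0.62% of peaks. With no minimum count edgeR called the same 3 genes lower, beside 0.91% of peaks, and over the shared class it called EXT1 (adjusted p 0.0407) and ADK (0.0421), beside 0.121%. Over the 43567 peaks listed in all 6 A549R libraries the falls of ADK (adjusted p 0.0111, edgeR), EXT1 (0.0160) and CMIP (0.0423) passed and that of SUCLG2 (0.558) did not, beside 0.39% of peaks called lower. Among those peaks 20 had a log2 change at or below that of EXT1, 24 at or below ADK, 305 at or below CMIP and 893 at or below SUCLG2.

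A549R lists are long in both groups. All 7 shared-class earlier ends fitted there had a negative log2 change, with a median of -1.72, and of the 7 long-list ends 5 did, with a median of -0.15. Of all 71312 peaks fitted, 45.1% had a negative log2 change. The ADK end at 76158218 had 37, 23 and 8 counts in DMSO and 0, 5 and 5 in cisplatin (log2 -2.69 ± 0.81, adjusted p 0.464, edgeR). The CMIP end at 81733281 to 81733404 had 29, 22 and 0 counts in DMSO and was in no cisplatin list. It entered the fit through DMSO counts alone, so its negative sign was fixed. The ADK end at 76153904 had 21, 12 and 0 counts in DMSO and 0, 0 and 5 in cisplatin, so it entered mostly through DMSO. The count and median of the 7 shared-class ends include both and are not read. Ends listed in all 6 libraries, a choice that leaves out ends that drop from a list, were closer to 0: the 6 long-list ends ran from -0.86 to 0.04 and the 3 shared-class ones from -0.48 to -0.17. The EXT1 end at 118992921 went from 18.1 to 13.2 CPM (log2 -0.18 ± 0.22), the CMIP ends at 81662680 and 81682343 from 25.3 to 19.5 and from 38.6 to 30.5 CPM (log2 -0.15 ± 0.17 and -0.10 ± 0.18), and the ADK end at 76361543 from 34.6 to 26.3 CPM (log2 -0.17 ± 0.16). DMSO replicate 3, which has the lowest total count of the series, was the highest of the 6 libraries for each of these ends and raises the DMSO means. The log2 changes are those of the fit, with TMM scaling, and differ from the ratios of these means. SUCLG2 had 1 earlier end in this fit, at 67455382 to 67455428, with 0, 7 and 0 counts in DMSO and 9, 10 and 11 in cisplatin (log2 2.08 ± 1.46, adjusted p 0.926, edgeR). None of the 14 earlier ends fitted was called. The distal share was 51.8 ± 13.4% in DMSO and 20.7 ± 7.47% in cisplatin for EXT1, 68.3 ± 1.16% and 50.8 ± 6.90% for CMIP, and 41.1 ± 5.60% and 15.2 ± 5.21% for ADK. Each of these 3 had the smallest p that 3 against 3 allow (two-sided exact permutation p 0.1, adjusted over 12 tests 0.24). SUCLG2 went from 78.8 ± 21.99% to 68.6 ± 23.2% (exact permutation p 0.6).

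In A549 cytosol itself the lists are short and hold no long-list end. Of the 3 earlier ends listed in all 6 libraries, those of EXT1 (118879006 to 118879058, log2 0.84 ± 0.62) and ADK (76414873 to 76414949, 0.25 ± 0.40) were not lower by group means. The EXT1 share went from 90.1 ± 3.69% to 53.7 ± 15.03% (exact permutation p 0.1, adjusted 0.24), with 26, 8 and 9 counts in the distal end with cisplatin. CMIP went from 78.4 ± 1.71% to 80.4 ± 0.38% (exact permutation p 0.1), as its earlier end at 81743690 fell with the distal one (log2 -1.93 ± 0.20, adjusted p 0.0319, edgeR). ADK went from 52.03 ± 11.8% to 48.4 ± 12.4% and SUCLG2 from 74.03 ± 10.8% to 82.1 ± 24.2%. The largest earlier end of SUCLG2, at 67659873 to 67660022, had 17, 25 and 7 counts in A549 DMSO and 12 and 5 in A549 cisplatin replicates 1 and 2; it was missing from the short list of cisplatin replicate 3 and from all H358 lists. The ADK end at 76361543 was in 2 of 3 A549 cytosol DMSO lists, with 123 and 119 counts, and in no cisplatin list. As the lists are short, this is not a count of 0, and its fitted change is not read. The ADK shares above depend on which of these lists hold that end, so the change in ADK share is not read either.

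**Figure D3:**
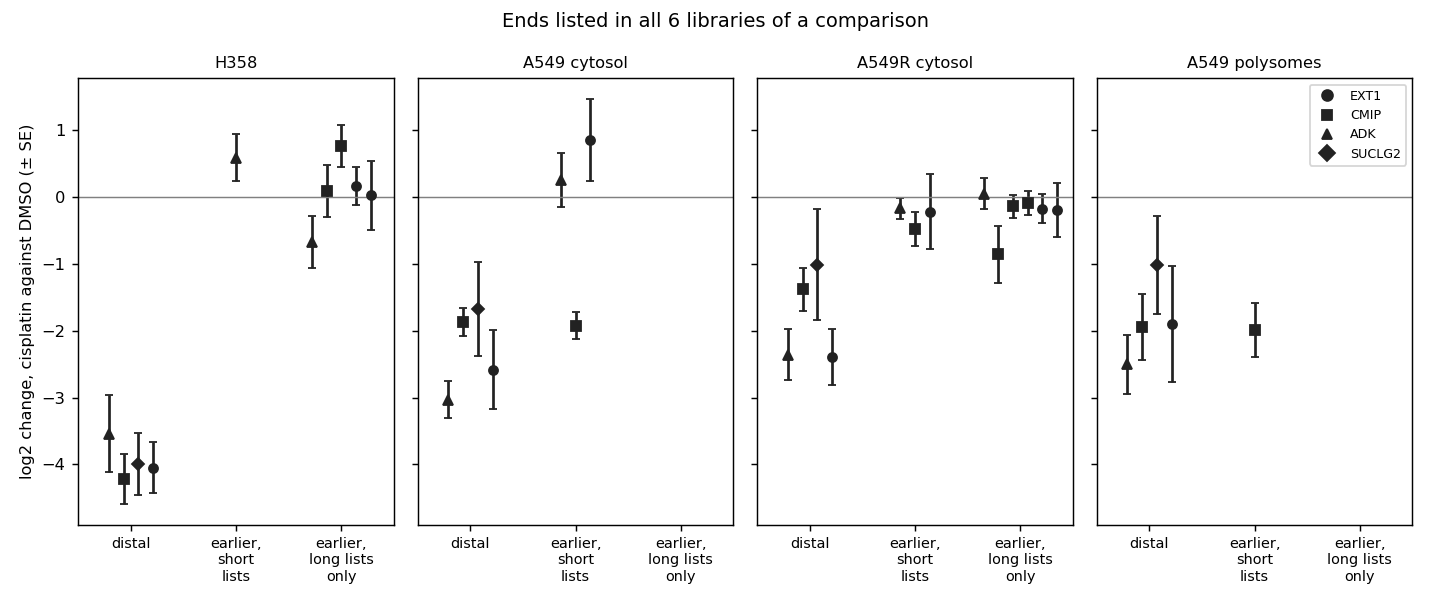
Log2 change with cisplatin (± SE of the edgeR fit) of every end listed in all 6 libraries of a comparison, split into distal ends, earlier ends that short lists hold and earlier ends of long lists only; symbols are genes. All 4 distal ends are below 0 in each panel, and the earlier ends of long lists in H358 and A549R lie between -0.86 and 0.75.

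On heavy polysomes of A549 the distal ends of CMIP, ADK and EXT1 were lower with cisplatin in every library, and none passed over all peaks. ADK stood at 33.7, 31.2 and 32.4 CPM in DMSO and at 6.83, 6.03 and 4.23 CPM in cisplatin (log2 -2.51 ± 0.44). CMIP stood at 625.8, 576.8 and 594.0 CPM and at 199.0, 189.9 and 71.1 CPM (log2 -1.95 ± 0.49). EXT1 stood at 8.70, 12.4 and 30.8 CPM and at 8.26, 3.88 and 1.35 CPM (log2 -1.90 ± 0.87), its replicate 3 being the highest in DMSO and the lowest in cisplatin. These 3 genes did not overlap between groups, against 4.8% of the 74786 peaks. Long-list peaks are missing from the short list of DMSO replicate 3, so they could not show this. They are among the 74786 and lower the 4.8%, so the genes' lack of overlap is not read against it. SUCLG2 stood at 45.4, 59.3 and 26.3 CPM and at 25.1, 32.7 and 7.49 CPM (log2 -1.02 ± 0.73), and its groups overlapped. The adjusted p was 1.0 for each of the 4 genes (edgeR).

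Of all polysome peaks 0.0% were called lower, with 0 called in either direction, 1167 at an unadjusted p under 0.05 (edgeR) and 19 called by DESeq2. Replicate 3 has a short list in both polysome groups. Over the 21585 peaks listed in all 6 libraries ADK fell (adjusted p 0.00773, edgeR), CMIP (0.0502), EXT1 (0.185) and SUCLG2 (0.368) did not pass, and 0.283% of peaks were called lower. Over all peaks the polysome libraries of one number varied together (0.63 to 0.88), but there the short lists of replicate 3 enter: replicates 1 and 2, of unlike number and both long, also correlated (0.47 and 0.48). Over the 21585 peaks, where every library lists each peak, libraries of one number correlated at 0.43 to 0.53 and those of unlike number at -0.39 to 0.09. Over these peaks the fit with the replicate block, added after the data were seen, called ADK (adjusted p 0.000688, edgeR), CMIP (0.00189) and SUCLG2 (0.0143) lower and not EXT1 (0.0770), beside 5.01% of peaks. Among the 21585 peaks, 23 had a log2 change at or below that of ADK, 88 at or below CMIP, 98 at or below EXT1 and 971 at or below SUCLG2.

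Polysome distal shares went from 52.1 ± 42.2% to 28.7 ± 18.5% for EXT1, from 74.7 ± 3.27% to 67.3 ± 7.58% for CMIP, from 48.5 ± 24.96% to 26.4 ± 27.3% for ADK and from 96.2 ± 3.59% to 93.7 ± 5.59% for SUCLG2 (exact permutation p 0.5, 0.3, 0.4 and 0.6). In replicates 1 and 2, whose lists are long, the ADK share was 30.3% and 38.3% in DMSO and 8.99% and 12.4% in cisplatin. In the same replicates the EXT1 share was 20.1% and 36.3% in DMSO and 19.6% and 16.5% in cisplatin. The short lists of replicate 3 gave 100.0% in DMSO and 50.0% in cisplatin for EXT1.

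**Figure D4:**
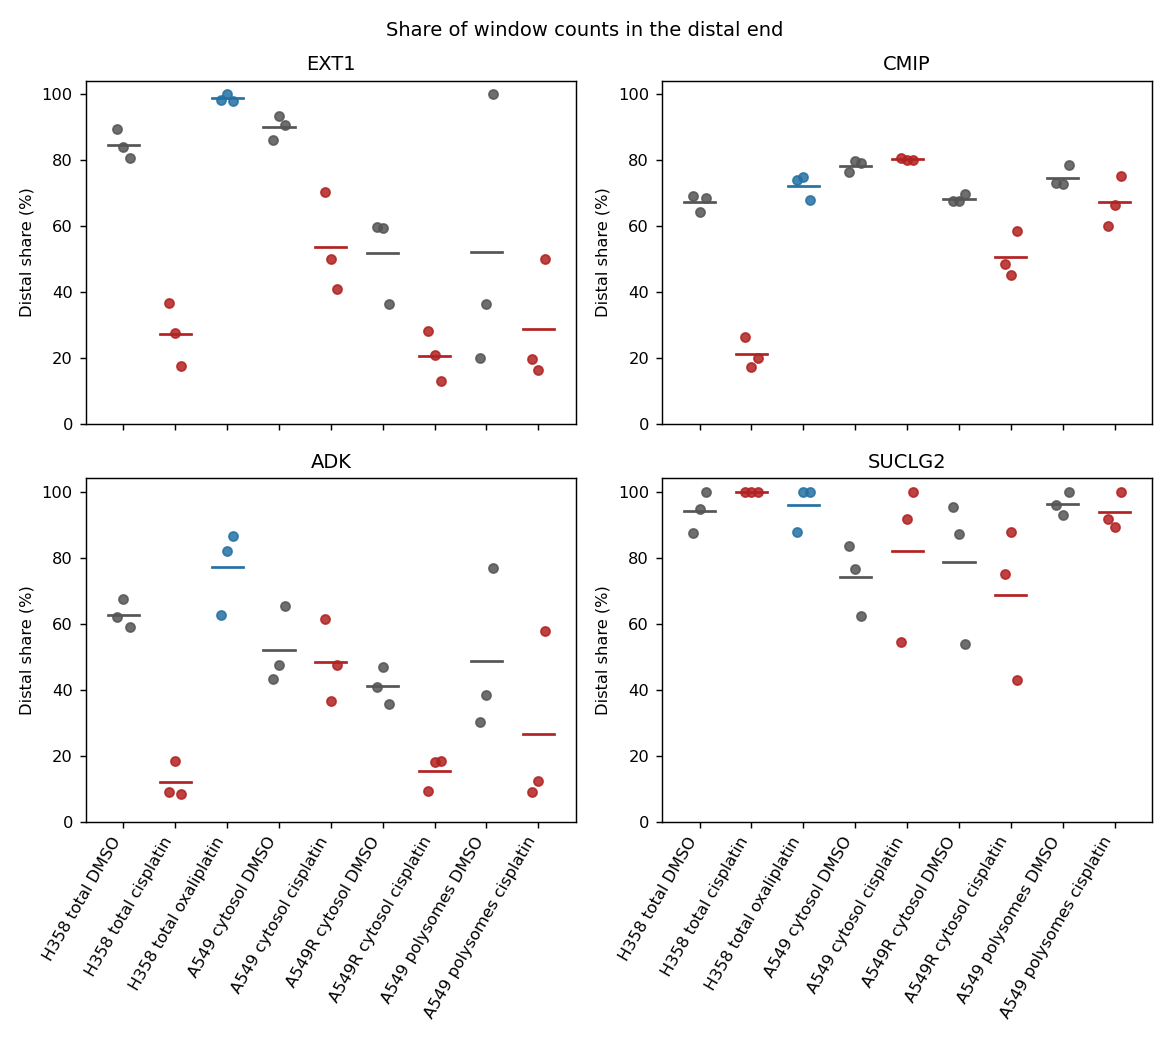
Distal share in percent in each library, 1 panel per gene, with group means as bars and colours for treatment as DMSO grey, cisplatin red and oxaliplatin blue. EXT1, CMIP and ADK are lower with cisplatin in H358 and A549R without overlap, and SUCLG2 overlaps in every comparison. Shares from short and long lists cannot be set side by side, since short lists hold no long-list end.

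Resistant and sensitive cells were compared over the shared class in cytosol. In DMSO the distal ends differed between A549R and A549 by log2 0.49 ± 0.46 for EXT1, -0.03 ± 0.31 for CMIP, 0.49 ± 0.31 for ADK and -0.08 ± 0.76 for SUCLG2. None passed (edgeR, adjusted p 0.616 to 0.999), while 3.99% of 33119 peaks did in either direction; the lists of the lines are of different kinds. The cisplatin response in A549R minus that in A549 was log2 0.13 for EXT1 (95% interval -1.37 to 1.64), 0.44 for CMIP (-0.53 to 1.41), 0.64 for ADK (-0.38 to 1.66) and 0.64 for SUCLG2 (-1.81 to 3.08). None passed, beside 0.0242% of peaks, and the intervals leave room for differences of more than 2-fold in all 4 genes.

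The 4 genes had different orders of level over the 9 groups, which mix both kinds of list. EXT1 was highest in H358 DMSO (61.1 ± 11.4 CPM), followed by H358 oxaliplatin, A549R DMSO, A549 DMSO and polysome DMSO (17.3 ± 11.8 CPM), each overlapping its neighbour, and the 4 cisplatin groups lay below at 3.43 to 5.13 CPM, overlapping each other. CMIP was highest on polysomes in DMSO (598.9 ± 24.9 CPM), then in A549R and A549 DMSO, which overlapped (361.0 ± 32.5 and 354.9 ± 6.36 CPM), and lowest in H358 cisplatin (6.73 ± 1.03 CPM), below all other groups. ADK group means were within 28.04 to 44.1 CPM in the 5 groups without cisplatin. In the 4 groups with it they were within 3.28 to 7.06 CPM. H358 cisplatin was low by the choice of the genes, and how many of all peaks show such a split was not counted. SUCLG2 ran from 43.7 ± 16.5 CPM on polysomes in DMSO to 1.84 ± 0.06 CPM in H358 cisplatin, and each group overlapped the next in that order.

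Over the 27 libraries the log2 levels of EXT1 and ADK had a Pearson r of 0.88, and the other 5 pairs of genes ran from 0.32 to 0.67. The points share groups and depth. They include the H358 libraries that chose the genes, so part of each r is set by the choice, and no link between genes is read. The correlations with other peaks below use the same libraries. Among 10279 peaks outside the windows that all 27 libraries listed, those most like EXT1 were at chromosome 1, 10690464 to 10690822 (r = 0.92) and chromosome 9, 108153070 to 108153719 (0.89). Those most like ADK were at chromosome 17, 56080547 to 56082106 (0.91) and chromosome 2, 3192693 to 3193276 (0.89). Those most like CMIP were at chromosome 19, 3468738 to 3469220 and chromosome 21, 44263062 to 44263752 (both 0.96), and those most like SUCLG2 were at chromosome 15, 40491809 to 40491929 (0.86) and chromosome 4, 101945925 to 101946979 (0.85). More than 0.9 was reached by 59 peaks for CMIP, 1 each for EXT1 and ADK, and 0 for SUCLG2.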

How the data were processed

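Fragmented poly(A)+ RNA was copied with anchored oligo-dT, amplified for 16 PCR cycles and read from 1 end for 50 bases, per the labels' protocols. The authors deposited 1 list of peaks per library, with positions, strand and a whole-number read count per peak; the smallest count listed is 5, and no source used here gives the rules of peak calling and filtering. Bowtie2 2.2.5, SAMtools 1.1, bedtools 2.17.0 and the mouse build mm9 are named in the submitters' processing notes; the positions fit human chromosome lengths of hg19, which is used here. Gene windows come from the selection rule, since no annotation of that build was used, and other genes of these pathways were not analysed here.

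Peaks on 1 strand that overlapped by at least 1 base were merged over the 27 lists, giving 233020 peaks; a merged peak not listed in a library had a count of 0 in the fits. A mean count of 5 or more over a fit's libraries was required, and peaks were fitted with edgeR 4.0.16 (TMM, quasi-likelihood test, R 4.3.3), and p-values were adjusted over all peaks by Benjamini-Hochberg, with a call at an adjusted p under 0.05. The edgeR step was also run on simulated counts for A549, A549R and polysomes. Those counts had neither replicate effects nor peaks missing by kind of list, so they do not show how the fits handle either. H358 fits were used for values and errors alone. Shares were compared by two-sided exact permutation tests, adjusted over 12 tests, which did not use replicate numbers. Intervals are 95% t intervals of the fit. Levels add 0.5 CPM before log2 for correlations only. The named ends are the distal end, the 3 earlier ends with the highest summed CPM, and the earlier ends with the largest rise and fall in H358; SUCLG2's earlier ends and some of the others held few counts and are not all described. Promoter sequences are RefSeq's. The members and lists were chosen with earlier results of these data known.

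Replicate numbers were taken to pair libraries where every same-numbered pair of libraries deviated together by a correlation over 0.1: A549 cytosol (0.16 to 0.28) and polysomes (0.63 to 0.88) met this, and A549R (0.05 to 0.16) and H358 cisplatin (-0.03 to 0.11) did not. Because list kinds enter the polysome value, the check was repeated, after the data were seen, over peaks listed in all 6 libraries: A549 cytosol (0.28 to 0.46) and polysomes (0.43 to 0.53) still met it, H358 (-0.10 to 0.31) did not, and A549R (0.10 to 0.31) met it there alone and was not treated as paired. Alternatives were DESeq2 1.42.0, RLE scaling, no minimum count, the shared class, peaks listed in every library, the replicate block, and leaving out each library; DESeq2 and no minimum count were not run for H358, which has no test. Total counts of 3024814 to 11997535 per library limit the precision of low ends, and PCR reads without molecular identifiers are not independent molecules.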

Additional observations from a re-analysis of the deposited data

How the results depend on the processing

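The distal ends of all 4 genes had a negative log2 change with cisplatin in H358, A549, A549R and polysomes under each alternative run for them and with any 1 library left out; for H358 these were the shared class, peaks listed in every library, RLE scaling and the replicate block, and neither DESeq2 nor a fit with no minimum count was run. Against oxaliplatin as well the H358 cisplatin levels were lower throughout, while the oxaliplatin change of ADK, -0.13, became 0.045 without DMSO replicate 2 (range -0.23 to 0.045).

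Counts of peaks called moved far more than the directions did. In A549 cytosol 131 peaks were called over all peaks, 1048 among peaks listed in every library, 2 with the replicate block, 3986 with both, 1792 by DESeq2, 1581 with no minimum count and 0 to 62 without 1 library. In A549R 2 were called, and 135 in the shared class, 400 among peaks listed in every library, 1923 with the replicate block added to that, 0 with the block alone, 4 with RLE scaling, 1067 by DESeq2, 3036 with no minimum count and 0 to 1 without 1 library. Since A549R numbers met the pairing check in part only, its block values are not read as a weaker effect. On polysomes 0 were called, and 1 in the shared class, 152 among peaks listed in every library, 2031 with the replicate block added, 19 by DESeq2 and 1 with no minimum count. Between A549R and A549 in DMSO 1323 were called, and 26808 over all merged peaks, where the kinds of list differ by construction, 345 among peaks listed in every library, 2406 by DESeq2 and 2912 with no minimum count. The response differed in 8 peaks, and in 0, 106 and 711 under the last 3 of these settings and 6 to 26 without 1 library. The cause of these differences was not tested.

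Changes in the distal share depended on which earlier ends were counted. With shared-class earlier ends they were 2.99 points for EXT1 and 13.4 for CMIP in H358 cisplatin, 1.77 for EXT1, -2.03 for CMIP and -1.47 for SUCLG2 in H358 oxaliplatin, 19.4 for SUCLG2 in A549R and 0.40 for SUCLG2 on polysomes. With earlier ends listed in every library of the comparison they were -65.1 for CMIP and -59.04 for ADK in H358 cisplatin and -2.90 for CMIP in oxaliplatin. For CMIP, taking all peaks of the last 3 kb as the distal end gave -62.8 with cisplatin and 9.96 with oxaliplatin, and leaving out earlier ends within 3 kb gave -62.6 and 12.2. Oxaliplatin lists are short and hold no long-list end. Oxaliplatin share changes that count such ends are therefore raised by the kind of list and are not read. Without 1 library the change ran from -1.50 to 5.85 for SUCLG2 in H358 oxaliplatin, -10.1 to 3.09 for ADK and -0.93 to 21.8 for SUCLG2 in A549, -22.7 to 2.61 for SUCLG2 in A549R and -39.4 to 0.50 for EXT1 on polysomes. Where no earlier end was left, an alternative gave no value. Distal counts as low as 5 limit SUCLG2 in H358 cisplatin.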
